A study of Mus with 6 samples.

Results

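The genes described here encode, in the nucleus, the subunits of the mitochondrial respiratory chain and of ATP synthase, and they were measured in the hippocampus of mice after forced swim stress (FSS). The members are the genes whose symbol starts with Ndufa, Ndufb, Ndufc, Ndufs, Ndufv, Sdha, Sdhb, Sdhc, Sdhd, Uqcr, Cox4i, Cox5, Cox6, Cox7, Cox8 or Atp5, without pseudogenes and without the assembly factors named Ndufaf and Sdhaf. This rule uses gene names and no measured value, and it gave 82 genes of the 19938 genes with a row of 1 symbol. Grouped by name, they are 36 members of complex I, 4 of complex II, 8 of complex III, 17 of complex IV and 17 of complex V. Rows shared by several symbols, such as the row of Cox7c, were not counted.

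Both groups were C57BL/6JJmsSlc mice with a labelled age of 10 to 11 weeks. The 3 FSS mice swam for 11 min a day on 5 days in water of 25 °C and 25 cm depth, and the 3 control mice did not swim. In the study's schedule a behavioral test of immobility followed the swims before the hippocampus was taken, and the FSS mice were chosen at random from a larger number of mice. The whole hippocampus was homogenized, so fewer cells of a type and less RNA per cell cannot be told apart.

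Oxidative phosphorylation takes electrons from NADH at complex I and from succinate at complex II, passes them through complex III and cytochrome c to oxygen at complex IV, and uses the proton gradient built on the way to make ATP at complex V. Most subunits are encoded in the nucleus, made in the cytosol and imported, while a small set is encoded by mitochondrial DNA. In neurons this pathway supplies most of the ATP for ion pumping and synaptic transmission, so its transcripts are abundant in the hippocampus.

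Each mouse was measured on 1 GeneChip Mouse Gene ST array, and the levels are log2 values deposited by the authors after robust multi-array averaging (RMA), so a difference of 1 is a doubling. The median levels of the 6 arrays ranged from 7.32 to 7.35. The spread of levels differed, with an SD of 2.22 to 2.23 in FSS mouse 2 and in the control mice numbered 1 and 2, and of 2.26 to 2.27 in control mouse 3 and in the FSS mice numbered 1 and 3. Both kinds of array occur in each group, so the members' median, the count above 0 and the value of Uqcrq are also given within each kind.

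The nuclear-encoded subunits of the FSS mice were close to the control level, and 1 of 82 passed the test. Their median log2 fold change (FSS minus control) was 0.035, with a range from -0.14 to 0.14, beside a median of 0.0049 over all 21789 rows tested. The member that passed, before adjustment for the number of rows, was Uqcrq, a small subunit of complex III. Its mean was 1.09-fold higher in the FSS mice. A member was counted at an unadjusted p under 0.05 in limma, a linear model for each gene whose variance borrows from that of all rows. By this rule 1 member was higher (1.22%) and 0 were lower, while over all rows 5.14% passed, 2.49% higher and 2.66% lower. The smallest adjusted p of a member was 0.943 by limma with Benjamini-Hochberg adjustment over all rows. The study's methods ask for a log2 fold change beyond 0.5 in either direction together with an unadjusted p under 0.05, which none of the 82 members and 0.0688% of all rows reached.

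The data bounded the size of the difference for most members. The 95% limma interval lay within -0.2 and 0.2, which is 1.15-fold, for 63 of 82 members. The widest bounds were -0.35 for Cox4i2 and 0.31 for Atp5md, so no interval of a member reached the log2 fold change of 0.5 used by the study. The members varied little between mice of a group, with a median within-group SD of 0.044 against 0.078 over all rows. These intervals are for the difference between the group means of 1 gene and are not adjusted for the number of genes. Their width comes from the spread between the 6 mice, with a variance that borrows from all rows.

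**Figure D1:**
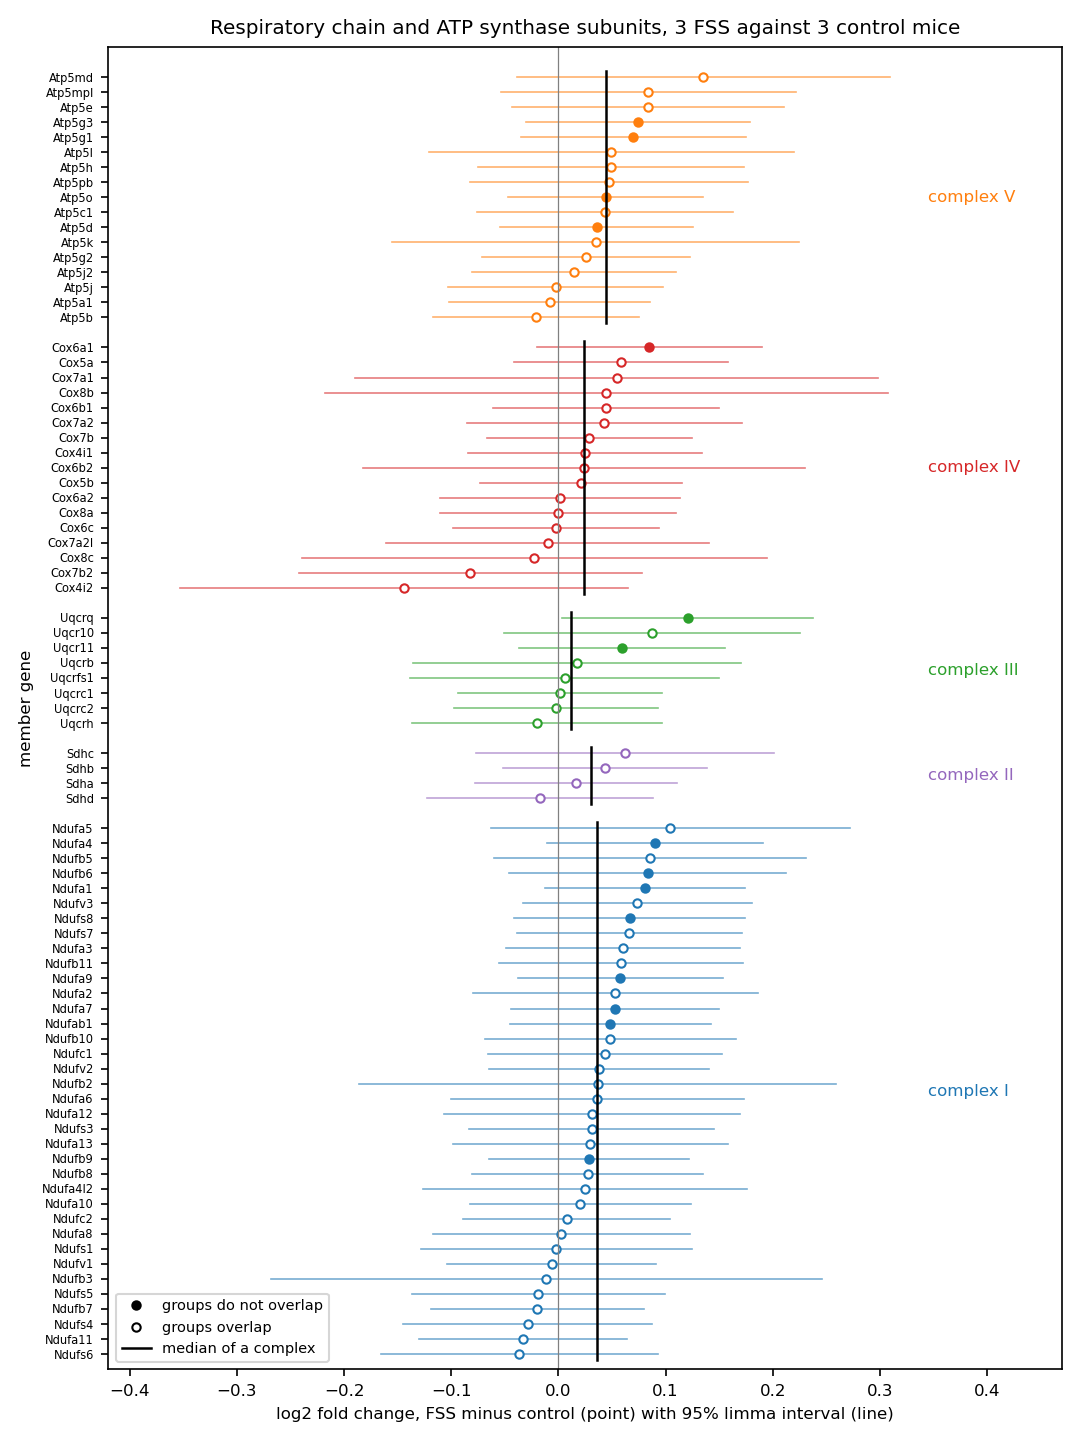
Log2 fold change (FSS minus control) of the 82 subunit genes, grouped by complex, with the 95% limma interval as a line. Filled points are the 15 genes whose FSS levels all lay above the control levels, the black lines are the medians of the complexes (0.036, 0.030, 0.011, 0.024 and 0.044 for complexes I to V), and the interval of Uqcrq alone does not cross 0.

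More members lay above the control mean than below it. The log2 fold change was above 0 for 62 members (75.6%) and below 0 for 20, while 53.0% of all rows were above 0. All 3 FSS mice exceeded all 3 control mice for 15 members (18.3%), against 6.02% of all rows. No member had all FSS mice below all control mice, against 4.25% of all rows. Subunits of 1 pathway are expressed together in the same cells, so these counts over members carry no test.

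The size of this tilt differed between arrays. Each level was set against the mean of the same gene over the 6 arrays, and the median of this difference over the 82 members was taken for each mouse. It was -0.013, -0.016 and -0.0092 in control mice 1 to 3 and 0.018, 0.0052 and 0.020 in FSS mice 1 to 3. FSS mouse 2 stood nearest to the controls, with 43 members above their own mean, against 61 in FSS mouse 1 and 56 in FSS mouse 3. In control mice 1 to 3, 27, 32 and 35 members were above their mean. Within the arrays of narrower spread (2 control mice and 1 FSS mouse) the median log2 fold change was 0.026 and 54 members were above 0, while all rows had a median of -0.0038. Within the arrays of wider spread (1 control mouse and 2 FSS mice) it was 0.029 with 59 members above 0, and all rows had a median of 0.016.

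**Figure D2:**
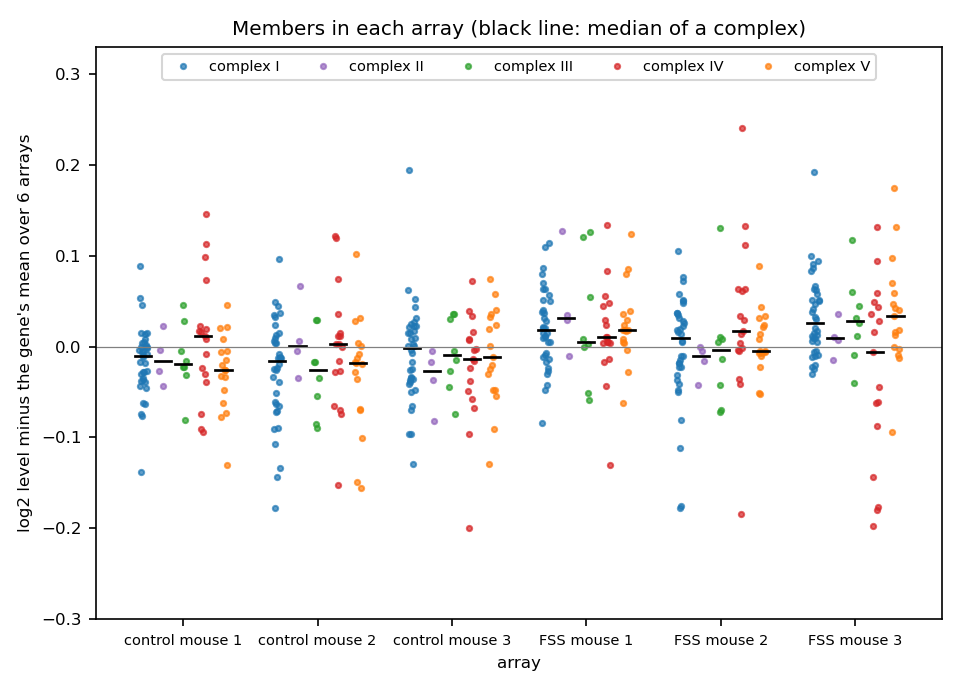
Deviation of each of the 82 subunit genes from its own mean over the 6 arrays (log2 scale), for each mouse, coloured by complex, with the median of each complex as a black line. Over all members the medians are below 0 in the 3 control mice (-0.016 to -0.0092) and above 0 in the 3 FSS mice (0.0052 to 0.020), and the points of the groups overlap widely.

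In complex I, the entry point for electrons from NADH, 0 of 36 subunits passed the limma test, and the median log2 fold change was 0.036. Counts by the other tests are given below for all members. The log2 fold changes ran from -0.036 for Ndufs6, an accessory subunit near the electron input module, to 0.10 for Ndufa5, an accessory subunit of the peripheral arm. The 6 core subunits measured, which include the carriers of the flavin and the iron-sulfur clusters, had a median of 0.035. The 30 other members with a complex I name, mostly accessory subunits that stabilise the complex, had a median of 0.036. They include Ndufa4 and Ndufa4l2, which are counted again below with the complex IV isoforms. All 6 core intervals lay within -0.2 and 0.2. The groups did not overlap for 8 of 36 members (22.2%), against 6.02% of all rows. These were Ndufa1, Ndufa4, Ndufa7, Ndufa9, Ndufab1, Ndufb6, Ndufb9 and Ndufs8. Of these 8, Ndufa1 alone stayed without overlap in the quantile and cyclic loess normalizations described below.

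Among the core subunits, Ndufv1 holds the flavin that accepts electrons from NADH. The levels of Ndufv1 were 10.58, 10.63 and 10.59 in control mice 1 to 3 and 10.60, 10.56 and 10.61 in FSS mice 1 to 3. The groups were interleaved, and the log2 fold change was -0.0064 with a standard error of 0.041. Ndufs1, the largest iron-sulfur subunit, had a log2 fold change of -0.0020 with a standard error of 0.053, and the log2 fold changes of Ndufs3 and Ndufv2, a scaffold and an iron-sulfur subunit of the same arm, were 0.031 and 0.038. Ndufs7 and Ndufs8 carry the last iron-sulfur clusters before ubiquinone, and both had a log2 fold change of 0.066. Ndufs8 levels were 11.70, 11.69 and 11.60 in the controls and 11.75, 11.72 and 11.72 after FSS. The groups of Ndufs8 did not overlap, whereas the lowest FSS level and the highest control level of Ndufs7 were both 12.76. The limma p was 0.18 for Ndufs7 and 0.188 for Ndufs8.

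Of the small subunits, Ndufa4, counted here by its name and again below with the complex IV isoforms, came nearest to the threshold in this group. Levels of Ndufa4 were 9.78, 9.83 and 9.83 in the controls and 9.87, 9.93 and 9.92 after FSS. Its groups did not overlap, the log2 fold change was 0.090 with a standard error of 0.042, and the limma p was 0.0722. Ndufa1 is a membrane subunit needed for assembly of the complex. The control levels of Ndufa1 were 7.72, 7.74 and 7.70, and the FSS levels were 7.79, 7.80 and 7.81. Here too the groups did not overlap, with a log2 fold change of 0.081, a standard error of 0.039 and a limma p of 0.0800. Ndufa9, a subunit next to the ubiquinone site, and Ndufab1, the mitochondrial acyl carrier protein, had smaller log2 fold changes of 0.058 and 0.049 with no overlap. The membrane arm subunits Ndufb6 and Ndufb9 had no overlap at 0.083 and 0.028, and Ndufa7, an accessory subunit, had none at 0.053. For Ndufb6 the control levels were 10.85, 10.71 and 10.84 and the FSS levels 10.86, 10.86 and 10.93, so that the lowest FSS mice lay just above control mouse 1. Ndufa5 had the largest value of the complex but overlapped between groups, with control levels of 8.71, 8.54 and 8.74 and FSS levels of 8.83, 8.68 and 8.80. Ndufc2, a membrane arm subunit, had 0.0077. Ndufs4, a phosphorylated accessory subunit known from Leigh syndrome, had a log2 fold change of -0.029 with an interval from -0.15 to 0.088. Ndufa11, a membrane subunit, had a log2 fold change of -0.033 by its brighter row and 0.0017 by its other row.

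Complex II, which is also the succinate dehydrogenase of the citric acid cycle, is encoded by the nucleus alone, and all 4 subunits were measured. None of the 4 passed the limma test, and the groups overlapped for each of them. The levels of Sdha, the flavoprotein that oxidises succinate, were 11.26, 11.30 and 11.29 in the controls and 11.32, 11.28 and 11.30 after FSS. These levels interleaved, with a log2 fold change of 0.017 and a standard error of 0.040. The log2 fold change was 0.043 for Sdhb, the iron-sulfur subunit, and 0.062 and -0.017 for the membrane anchors Sdhc and Sdhd. The largest of these, for Sdhc, rested on FSS mouse 1 at 10.95, since the other FSS mice, at 10.78 and 10.83, lay within the control range of 10.74 to 10.84.

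In complex III, which moves electrons from ubiquinol to cytochrome c, 1 of 8 subunits passed the limma test. Uqcrq levels were 9.61, 9.61 and 9.68 in control mice 1 to 3 and 9.82, 9.70 and 9.74 in FSS mice 1 to 3. The groups did not overlap, although the highest control level and the lowest FSS level lay close together. The means were 9.63 ± 0.039 in the controls and 9.75 ± 0.060 after FSS (SD, n = 3 each). The log2 fold change was 0.12 with a standard error of 0.049 and an interval from 0.0038 to 0.24. The unadjusted limma p was 0.0447, and the adjusted p was 0.943. An exact two-sided permutation test gave p = 0.1, the smallest that 3 against 3 arrays allow. The call was lost on leaving out control mouse 1, control mouse 2, FSS mouse 1 or FSS mouse 3 (limma p from 0.0772 to 0.14, log2 fold change from 0.088 to 0.13). Within the arrays of narrower and of wider spread the log2 fold change was 0.093 and 0.10.

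The median of complex III was 0.011, and it was -0.0012 with the array spread as a block. Its larger parts gave values near 0. Uqcrc1 and Uqcrc2 are the core proteins, and Uqcrfs1 is the Rieske iron-sulfur protein that hands electrons on toward cytochrome c. Their log2 fold changes were 0.0012, -0.0025 and 0.0057. Uqcrc2 levels were 12.14, 12.14 and 12.19 in the controls and 12.16, 12.16 and 12.15 after FSS, so the FSS mice lay inside the control range. Among the small subunits, Uqcr11 had control levels of 11.37, 11.35 and 11.40 and FSS levels of 11.46, 11.41 and 11.43. Those groups did not overlap, and the log2 fold change of Uqcr11 was 0.059 with a limma p of 0.188. Uqcr10 had a log2 fold change of 0.088 with overlap, and it passed at 0.14 only where FSS mouse 1 was left out. Uqcrh, the hinge protein at the cytochrome c site, had a log2 fold change of -0.020.

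In complex IV, cytochrome c oxidase, 0 of 17 subunits passed the limma test, with a median of 0.024 and a range from -0.14 to 0.085. Several of its subunits exist as a common isoform and as isoforms known from heart, skeletal muscle, lung or testis. The 7 common isoforms, counting Ndufa4, had a median log2 fold change of 0.043, and all 7 intervals lay within -0.2 and 0.2. The 8 tissue-restricted isoforms, counting Ndufa4l2, had a median of 0.013 and a median within-group SD of 0.13 against 0.037 for the common isoforms, and 2 of the 8 intervals lay within those bounds. Of these 8, the 7 other than Cox6a2 had mean levels below the median of all rows tested, and no other member did.

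Among the 17 members with a complex IV name, Cox6a1, the common form of a regulatory subunit, was the 1 with no overlap. That is 5.88%, against 6.02% of all rows. Ndufa4, counted above with the common isoforms, had no overlap either. Levels of Cox6a1 were 10.89, 10.99 and 10.93 in the controls and 11.03, 11.01 and 11.03 after FSS. The lowest FSS level was just above the highest control level, with a log2 fold change of 0.085, a standard error of 0.044 and a limma p of 0.0965. Cox4i1, the common form of the subunit at which ATP regulates the enzyme, had control levels of 10.53, 10.61 and 10.64 and FSS levels of 10.61, 10.60 and 10.64. The groups overlapped, and the log2 fold change was 0.025. Cox4i2, the lung isoform induced by low oxygen, had the lowest log2 fold change of all members at -0.14, with control levels of 7.33, 7.26 and 7.18 and FSS levels of 7.06, 7.30 and 6.99. FSS mouse 2 lay inside the control range while the other FSS mice lay below it. The limma p of Cox4i2 was 0.146, and it was 0.00964 at a log2 fold change of -0.24 without FSS mouse 2. Cox8c, a testis isoform, had a log2 fold change of -0.022, and it passed at -0.13 without control mouse 3. Cox7b2, another isoform known from testis, had a log2 fold change of -0.082, with control levels of 4.78, 4.88 and 4.75 and FSS levels of 4.72, 4.83 and 4.62. These overlapped. Cox7a1 and Cox8b, isoforms of heart and skeletal muscle, had log2 fold changes of 0.054 and 0.045 with standard errors of 0.10 and 0.11. The common isoforms Cox6b1, Cox7a2 and Cox7b had log2 fold changes of 0.044, 0.043 and 0.029, and the restricted isoforms Cox6a2, Cox6b2 and Ndufa4l2 had 0.0017, 0.024 and 0.025, all with overlap. Cox6c and Cox8a, abundant structural subunits, had log2 fold changes of -0.0021 and -0.00042.

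In complex V, the ATP synthase, 0 of 17 subunits passed the limma test, and 14 of 17 had a log2 fold change above 0, with a median of 0.044. The 5 subunits of the F1 head and central stalk, where ATP is made, had a median of 0.036, and the 12 subunits outside F1 had a median of 0.048. Atp5b, the catalytic beta subunit, had control levels of 13.14, 13.15 and 13.18 and FSS levels of 13.12, 13.12 and 13.16. These overlapped, and the log2 fold change was -0.021. Atp5a1, the alpha subunit, had a log2 fold change of -0.0081, and Atp5c1, the gamma subunit that turns inside the head, had 0.043. Atp5e, the small epsilon subunit of the stalk, had 0.084 with overlap, and Atp5k, a small membrane subunit, had 0.035 with overlap. Atp5d, the delta subunit of the stalk, had 12.95 in all 3 controls and 12.99, 12.99 and 12.98 after FSS. The groups did not overlap because both SDs were very small, at 0.0025 and 0.0057, and the log2 fold change was 0.036 with a limma p of 0.378.

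Atp5g1, Atp5g2 and Atp5g3 encode the same mature c subunit of the rotor ring and differ in their import sequence. The levels of Atp5g1 were 12.25, 12.26 and 12.23 in the controls and 12.37, 12.31 and 12.27 after FSS. Atp5g3 had control levels of 11.38, 11.37 and 11.29 and FSS levels of 11.40, 11.42 and 11.44. The groups overlapped for neither of these, with log2 fold changes of 0.070 and 0.074, while Atp5g2 overlapped at 0.026. Atp5o, a subunit of the peripheral stalk, also had no overlap, with control levels of 10.70, 10.72 and 10.70, FSS levels of 10.75, 10.74 and 10.76 and a log2 fold change of 0.044. Atp5md, a small subunit that helps pair the synthase into dimers, had the largest log2 fold change of all members at 0.14, with control levels of 11.15, 11.07 and 11.24 and FSS levels of 11.30, 11.17 and 11.40. The groups of Atp5md overlapped, since FSS mouse 2 lay below control mouse 3, and the limma p was 0.109. It passed without FSS mouse 2, at 0.19.

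**Figure D3:**
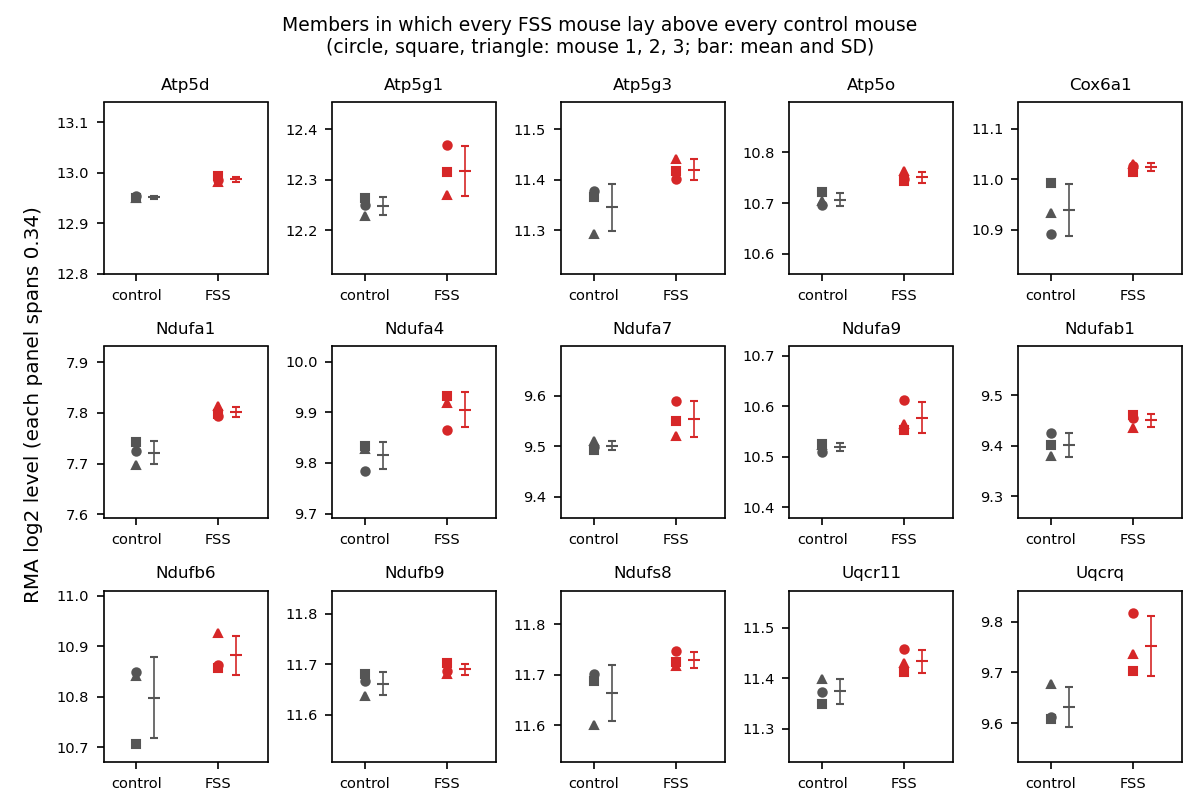
Log2 levels per mouse of the 15 subunit genes whose 3 FSS levels all lay above the 3 control levels, with the group mean and SD beside the points. Each panel spans the same log2 range of 0.34, so that the gaps between groups can be compared. The gap of Uqcrq lies between 9.68 and 9.70.

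The members lay among the brightest genes of the array, and the tilt above 0 was found in other bright genes too. Of the 82 members, 47 had a mean level in the top 10% of all rows. In that range, all rows had a median log2 fold change of 0.020 with 71.3% above 0 and 11.7% with all FSS mice above all control mice. The 47 members there had a median of 0.031 with 78.7% above 0, and 10 had no overlap. In the lowest 10% of levels the median of all rows was -0.032. The median deviations per mouse in the top 10% of all rows were -0.014, -0.016 and 0.0014 in control mice 1 to 3 and 0.023, -0.014 and 0.019 in FSS mice 1 to 3. The part of this level-dependent shift in the members' values was not tested apart from the normalizations. When the arrays were brought to 1 distribution by quantiles, the members' median was 0.021. Without overlap were then 5 members higher (6.10%) and 3 lower (3.66%), near the shares over all rows of 5.4% and 5.13%, against 15 and 0 members as deposited. After cyclic loess the median was 0.020, with 3 members higher (3.66%) and 2 lower (2.44%) beside 5.41% and 5.35% of all rows. With the arrays only centred on their medians, 14 members were higher (17.1%) and 0 lower, beside 5.34% and 4.13% of all rows. Ndufa1 had no overlap, on the higher side, as deposited and in these 3 settings, whereas the groups of Uqcr11 and Uqcrq overlapped after median centring and not in the others.

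**Figure D4:**
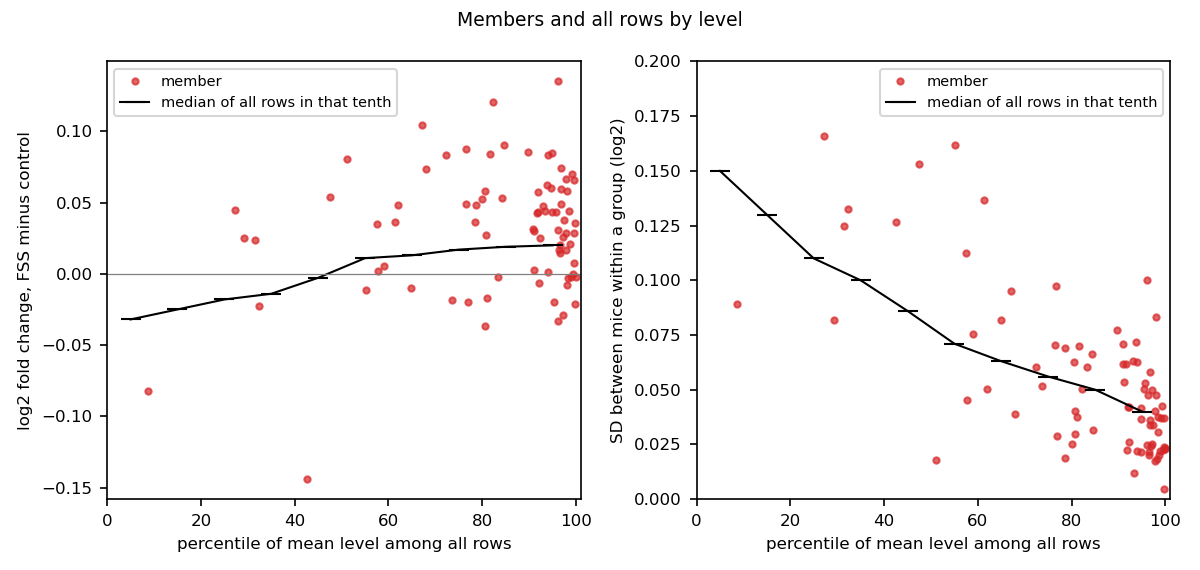
Left, log2 fold change (FSS minus control) of the 82 subunit genes against the percentile of their mean level among all rows, with the median of all rows in steps of 10% of levels, which goes from -0.032 in the lowest to 0.020 in the top step. Right, within-group SD of the same genes on the same axis, with the step medians of all rows going from 0.15 to 0.040, so that most members sit where the array varies least.

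How many members passed also depended on the variance model. The limma fit moderates each variance toward 1 value for all genes, an SD of 0.0718, and 65 of 82 members had a smaller SD of their own. Where this value was allowed to follow the level (limma with trend and robust eBayes), 7 members were higher, against 3.47% of all rows. These 7 were 8.54% of the members, namely Atp5g1, Atp5g3, Atp5md, Cox6a1, Ndufa4, Ndufs7 and Uqcrq, and their smallest adjusted p was 0.861. The methods' own test, which uses each gene's variance alone, gave 9 members higher (11.0%), against 2.96% of all rows, namely Atp5d, Atp5o, Cox6a1, Ndufa1, Ndufa4, Ndufa9, Ndufab1, Uqcr11 and Uqcrq. The smallest adjusted p of a member there was 0.851, and no member was lower by either test. Cox6a1, Ndufa4 and Uqcrq were in both sets.

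The other gene lists of the pathway had medians between 0.0021 and 0.035 on the log2 scale. Counts of genes higher or lower by limma stand beside 2.49% and 2.66% of all rows. Of the subunits encoded by mitochondrial DNA, COX2 and ND3 were measured, and their log2 fold changes were 0.00092 and 0.032. The 12 carriers and subunits outside the name rule had 0 higher and 0 lower by limma and a median of 0.014. Cyc1, the cytochrome of complex III, was at 0.039 and Cycs, cytochrome c, at 0.011. Of 44 assembly factors 1 was higher, Nubpl, which inserts iron-sulfur clusters into complex I, with a log2 fold change of 0.36, and the median was 0.029. The control levels of Nubpl were 6.02, 6.14 and 6.53 and the FSS levels 6.68, 6.50 and 6.60, so the groups overlapped.

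Of 16 enzymes of the citric acid cycle, 0 passed in either direction, with a median of 0.019. Of 21 regulators of mitochondrial biogenesis, 0 passed and the median was 0.0021. Ppargc1a, the coactivator that drives many subunit genes, had control levels of 10.92, 10.97 and 11.03 and FSS levels of 10.94, 10.89 and 10.97. These overlapped, and its log2 fold change was -0.040. Of 23 genes of protein import 1 was higher, Pam16, a part of the import motor, with a log2 fold change of 0.27. Of 77 mitochondrial ribosomal proteins 1 was higher, Mrpl14, with 0.21, and their median of 0.035 was that of the nuclear-encoded subunits.

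Markers of cell types were set beside the members because neurons are rich in these transcripts. Over all rows, 53.0% of log2 fold changes were above 0 and 6.02% had no overlap on the higher side. By limma 2.49% of all rows were higher and 2.66% lower. In the top 10% of levels, 71.3% of all rows were above 0 and 11.7% had no overlap on the higher side. General neuronal markers such as Snap25 and Syp, genes of synaptic vesicle release, had 9 of 10 log2 fold changes above 0. Their median was 0.031, 3 of 10 had no overlap, on the higher side, and 0 passed limma in either direction. Their mean level ranged from 11.82 to 11.88 in the control mice and from 11.85 to 11.89 in the FSS mice, and that of the 82 members from 10.21 to 10.22 and from 10.24 to 10.26. Microglial markers, led by genes such as P2ry13 and Itgam, had 4 of 11 higher and 0 lower, a median of 0.15 and mean levels of 8.51 to 8.68 and 8.71 to 8.78. Trem2 and Cx3cr1 were the other microglial markers that were higher. Astrocyte markers had 3 of 10 higher (Aqp4, Gfap and Gja1) and 2 lower (Aldoc and Fgfr3), with mean levels of 10.40 to 10.44 and 10.45 to 10.52. Excitatory neuron markers had 9 of 10 log2 fold changes above 0 and a median of 0.042, and 2 had no overlap, on the higher side. Of these 10 markers 1 was higher by limma, Prox1, a factor of dentate granule cells. Prox1 levels were 9.94, 9.83 and 9.88 in the controls and 10.02, 10.05 and 10.01 after FSS, which did not overlap. Inhibitory neuron markers (median -0.011), oligodendrocyte markers (0.029) and endothelial and mural markers (0.080) had 0 higher and 0 lower. Of 8 choroid plexus markers 1 was higher, Ttr, which carries thyroid hormone and retinol-binding protein. The median of this list was -0.0024, with 4 log2 fold changes above 0, up to 0.95, and 4 below. Its mean levels were 6.67 to 6.96 in the controls and 6.87 to 7.07 after FSS. The part of these cell types in the members' values was not tested.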

How the data were processed

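Hippocampal RNA of 3 control and 3 FSS mice was hybridized by the authors to GeneChip Mouse Gene ST arrays, and the values deposited are log2 levels after RMA. The Affymetrix Expression Console is named in the notes of the submitters on processing. The genome build is not given in the sources used here. By the array's annotation, 21789 of 28944 rows carry 1 gene symbol, 1621 several and 5534 none. Gene IDs of 21698 of the first were found in a RefSeq table, with 0 symbols updated. Each symbol was represented by its row of highest mean, and the 82 members had 107 rows.

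FSS minus control was fitted over the 21789 rows by lmFit and eBayes of limma 3.58.1, run in R 4.3.3, without covariates, and p was adjusted by the Benjamini-Hochberg method over all rows. The step was tested on simulated data with changes of 1 and 0.5 in size on the log2 scale. Changes as small as those of the members were not simulated, so this test does not show how well they are found. The exact permutation test was two-sided. The members named are those with a limma p under 0.05, those without overlap, the 5 largest and 5 smallest log2 fold changes, the highest and lowest level in each complex, core subunits and isoform pairs. Other genes are Cyc1, Cycs, Ppargc1a and list members with p under 0.05. Sdhb, Sdhc, Uqcrh, Atp5g2, Snap25, Syp, COX2 and ND3 were added after their values were seen. The members, lists and rules were chosen with earlier results of these data known. Planned sequence features of promoters and proteins were not analysed here. The alternatives were other tests, variance models, array weights, normalizations, filters on rows and each mouse left out in turn. With 1 array per mouse, the number of arrays limits the precision.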

Additional observations from a re-analysis of the deposited data

How the results depend on the processing

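The median of all members stayed above 0 under every alternative. It was 0.021 with quantile normalization, 0.020 with cyclic loess and 0.028 to 0.038 on leaving out 1 mouse, and the largest moves came with those normalizations. With quantile normalization the medians of complexes I to V were 0.022, 0.0048, -0.0057, -0.0014 and 0.028, and with cyclic loess 0.021, 0.0082, -0.0045, 0.0039 and 0.026. Complex IV gave 0.0061 with array weights. With the array spread as a block complex III gave -0.0012. On leaving out 1 mouse the medians of complexes I to V ranged from 0.036 to 0.046, 0.0099 to 0.043, 0.0073 to 0.042, 0.010 to 0.029 and 0.035 to 0.048.

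The number of members higher was 9 (11.0%) by the equal-variance t-test, beside 2.96% of all rows. It was 7 (8.54%) with trend and robust eBayes, beside 3.47% of all rows. With array weights it was 2, and without dim genes 3. It was 0 with quantile normalization, median centring, all rows of the table and an adjusted p under 0.05. It was also 0 with the array spread as a block, which was added after seeing the data. On leaving out 1 mouse 0 to 2 were higher and 0 to 1 lower. For array weights, the dim-gene filter and the fits without 1 mouse, the share over all rows is not given. Members without overlap numbered 5 higher (6.10%) and 3 lower (3.66%) with quantile normalization, beside 5.4% and 5.13% of all rows. With cyclic loess they numbered 3 (3.66%) and 2 (2.44%), beside 5.41% and 5.35%. On leaving out 1 mouse they numbered 19 to 26 and 1 to 4, but fewer levels then have to separate in every row. No share over all rows is given there, so those counts cannot be set against other genes. The cause of the other moves was not tested.

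Control and FSS mice share replicate numbers, which were not taken as pairs in the main fit. The deviations of same-numbered mice correlated at -0.0477, 0.1449 and 0.239, and those of differently numbered mice at -0.259 to 0.1309. With so few mice these values do not decide whether the numbers mark pairs. With the replicate number as a block 1 member was higher, Atp5md (limma p 0.0273), while Uqcrq did not pass (p 0.0642). Uqcrq was also lost with quantile normalization (p 0.0528), median centring (0.0635) and all rows of the table (0.0509). In the settings run, 23 of the 51 members named by rule had a sign change under some alternative.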
